A study of Homo sapiens with 4 samples.

Results

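ATF4 and unfolded protein response genes were examined in RNAseq data of T24 cells, a human bladder carcinoma line. The set holds 40 genes, chosen by symbol as members of the ATF4 programme or of the unfolded protein response, out of 57879 genes in the deposited files. It comprises 8 ATF4 regulators and feedback genes, an amino acid arm of 11 genes, 2 secreted or surface targets of ATF4, 4 sensors of the endoplasmic reticulum (ER), an ER chaperone arm of 12 genes and 3 genes of ER-associated degradation. The rule picks them by name, though with earlier results of these data known, and all 40 genes had enough counts for a test.

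The study asked what the TET1 catalytic domain does to bladder cancer cells, and the RNAseq compared cells that overexpress this domain (TET1-CD) with control cells that the study calls empty vector (EV), with 2 libraries in each group. T24 cells of both groups were grown in RPMI with fetal calf serum and given no drug or ER stressor that the labels name, although the source name of all 4 libraries, EV included, calls the cells induced without saying by what. TET1-CD was expressed from a pCDH lentiviral plasmid with a FLAG tag, in stable transfectants, and the enzymatically inactive mutant that the study used elsewhere has no library here. The sources used here do not say whether each group was a clone or a pool, or whether the 2 libraries of a group came from separate cultures, so the p-values measure only the spread between these libraries.

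TET1 itself had 111 and 83 counts in EV, against 2939 and 3310 under TET1-CD, a 32.5-fold difference in the direction of the labels. The libraries held 17442143 to 20295266 estimated fragments each. Of the markers of the labelled cell type, KRT7, KRT8 and KRT18 were at 396 to 697 FPKM (fragments scaled to transcript length and library size), while the uroplakins UPK1B, UPK2 and UPK3A, which mark differentiated urothelium, had 0 to 6 counts. The mesenchymal marker VIM was at 1344 to 1837 FPKM. The other epithelial markers were lower than these keratins. PPARG was at 11.3 to 13 FPKM, EPCAM, KRT19 and GATA3 were at 0.38 to 6.87 FPKM, and CDH1 had 0 to 2 counts. Leukocyte markers PTPRC, CD79A and CD3E had 0 to 3 counts and the endothelial marker CDH5 9 to 22. Of the fibroblast markers, DCN had 1 to 3 counts and COL1A1 70 to 314. Markers moved between the groups: by edgeR, KRT7 (1.27-fold, adjusted p = 0.00175), KRT18 (1.13-fold, 0.0414), KRT19 (2.01-fold, 0.00273), GATA3 (2.38-fold, 0.0163) and COL1A1 (3.7-fold, 1.03e-05; 266 and 314 counts against 88 and 70) were higher under TET1-CD, VIM was lower (0.764-fold, 0.00232), and KRT8, EPCAM, PPARG, CDH2 and CDH5 were not called. Whether these marker differences bear on the genes below was not tested.

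As background, cells answer amino acid shortage, ER stress and other insults with kinases that phosphorylate the initiation factor eIF2, which slows translation in general but favours translation of the ATF4 message. ATF4, a bZIP transcription factor, then induces genes of amino acid synthesis, uptake and tRNA charging together with its own feedback inhibitors. Unfolded proteins in the ER activate the sensors PERK (EIF2AK3), IRE1 (ERN1) and ATF6; IRE1 splices the XBP1 message, ATF6 is released by cleavage, and both pathways induce ER chaperones. Much of this control acts on translation, splicing or protein processing, which a level of mRNA does not measure.

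In the amino acid arm 5 of 11 genes rose, ALDH1L2 by 5.56-fold and the others by less than 1.5-fold, and in the ER chaperone arm 7 of 12 rose, by 1.29-fold at most, while none of the regulators rose and 3 fell. At an adjusted p under 0.05, 12 of the 40 genes were higher and 6 lower under TET1-CD by edgeR's quasi-likelihood test with Benjamini-Hochberg adjustment over 14573 genes, and 22 were not called. That is 30% higher and 15% lower, beside 10.0% higher and 9.61% lower (19.7% in either direction) among all genes tested. These shares were not matched for level, here or for the further lists below, and small changes are called more easily in abundant genes. The standard error of the log2 fold change was 0.05 for HSP90B1, at the 99.2th percentile of FPKM, and 0.26 for CTH, at the 24.6th. Both TET1-CD libraries lay above both EV libraries for 19 of the genes and below them for 9, and the groups overlapped for 12; over all genes tested, 30.8% lay above and 30.2% below, 61.0% in all. In bulk libraries, fewer expressing cells and less RNA per cell cannot be told apart. Except for ALDH1L2, every called gene changed by less than 2-fold, the size the study required of a DEG. Of all genes tested, 2.72% were called and at least 2-fold higher and 1.04% called and at least 2-fold lower. Fewer of the 40 genes were called with either TET1-CD library left out, and more with either EV library left out. The share of all genes called in those fits is not given here, so these shifts cannot be set beside it. None of the called genes changed sign in any of the 12 alternative fits.

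**Figure D1:**
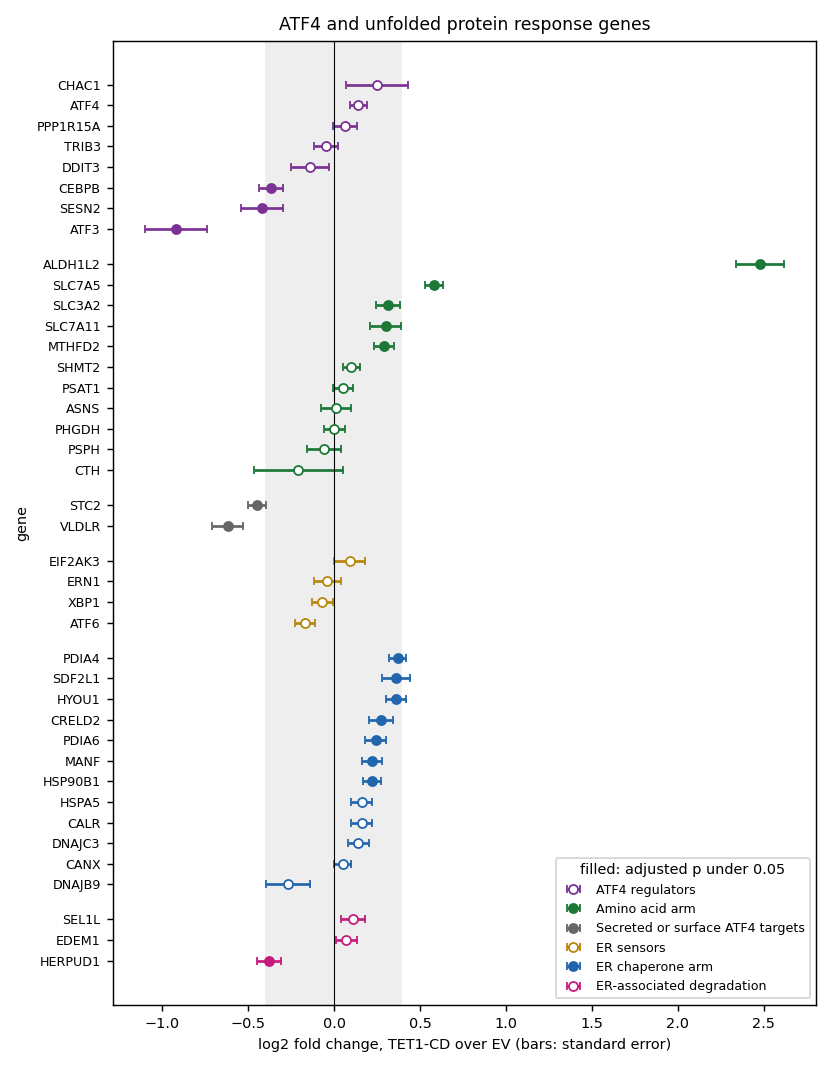
Log2 fold change of TET1-CD over EV (horizontal axis) for each of the 40 genes, grouped by role, with bars for the standard error and filled points for an adjusted p under 0.05. The grey band spans the 10th to 90th percentile of all genes tested, -0.40 to 0.39; ALDH1L2 (2.48), SLC7A5 (0.58), ATF3 (-0.92), VLDLR (-0.62), STC2 (-0.45) and SESN2 (-0.42) stand outside it, and the ER chaperones, DNAJB9 aside, lie to the right of 0.

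The arms were compared by the change of each gene relative to the mean of the EV libraries. In the ER chaperone arm 11 of 12 genes were above 0 and 7 were called higher (58.3%), with a median log2 fold change of 0.22. In the amino acid arm 9 of 11 genes were above 0 and 5 were called higher (45.5%), with a median of 0.10, and no gene of either arm was called lower. Among the ATF4 regulators none was called higher and 3 were called lower, with a median of -0.09. The median of all genes tested was 9.54e-04. Per library, the mean log2 difference from EV was 0.24 and 0.14 for the ER chaperones in TET1-CD replicates 1 and 2. It was 0.39 and 0.30 for the amino acid arm, a mean that includes ALDH1L2 with its log2 fold change of 2.48. The medians per library had the opposite order, at 0.25 and 0.17 for the ER chaperones and 0.17 and 0.10 for the amino acid arm. In the EV libraries the mean lay between -0.03 and 0.03 for both arms. Fewer genes of both arms were called with either TET1-CD library left out. Without TET1-CD replicates 1 and 2 in turn, the median log2 fold change was 0.18 and 0.25 for the ER chaperones. It was 0.10 and 0.18 for the amino acid arm and -0.11 and -0.07 for the regulators.

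**Figure D2:**
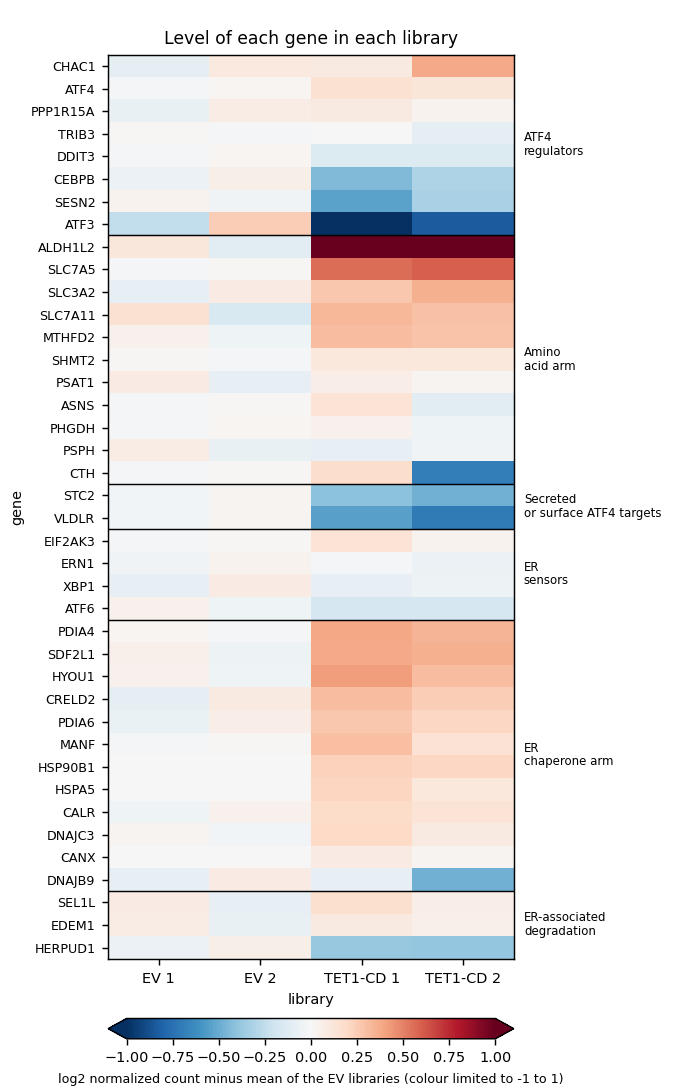
Log2 normalized count of each gene in each of the 4 libraries minus the mean of the EV libraries (colour, limited to -1 to 1), with the genes in rows by role. The 2 TET1-CD columns share their colour for the called genes, while CTH and DNAJB9 are low in TET1-CD replicate 2 only.

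Among the regulators, ATF4 itself was not called and 3 genes fell. ATF4 (GRCh37 chromosome 22, 39915700 to 39918691, plus strand) had 5263 and 5406 normalized counts (counts scaled to a common library size) in EV, against 5922 and 5803 under TET1-CD. The TET1-CD libraries were thus above the EV libraries, but the log2 fold change of 0.14 (standard error, SE, 0.05) did not pass the test (adjusted p = 0.0927). ATF4 was among the more abundant messages, at 195 to 221 FPKM, the 97.8th percentile of genes tested, and transcript ENST00000396680 held 95.7% to 96.8% of its counts in every library.

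ATF3, a stress-induced bZIP repressor downstream of ATF4, had 173 and 243 normalized counts in EV, against 103 and 115 under TET1-CD. The groups did not overlap although the EV libraries were apart, and the log2 fold change was -0.92 (SE 0.18, adjusted p = 0.00608 by edgeR). Without TET1-CD replicate 1 its adjusted p was 0.0604. CEBPB, a bZIP partner of ATF4, had 1784 and 1930.5 normalized counts in EV, against 1365 and 1502 under TET1-CD. Both TET1-CD libraries were lower, and the log2 fold change was -0.37 (SE 0.07, adjusted p = 0.00477). Without TET1-CD replicates 1 and 2 in turn it was -0.30 and -0.44, and CEBPB, like the other regulators, was not called without replicate 1. SESN2, which encodes the leucine sensor Sestrin 2, had 282 and 269 in EV, against 190.5 and 220.0 under TET1-CD. Its log2 fold change of -0.42 (SE 0.12) had an adjusted p of 0.0289 by edgeR and 0.237 by DESeq2. Without TET1-CD replicates 1 and 2 in turn the log2 fold change was -0.32 and -0.53.

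The other regulators did not pass the test. DDIT3, which encodes the proapoptotic factor CHOP, had 212 and 217 normalized counts in EV, against 195 and 195 under TET1-CD, with a log2 fold change of -0.14 (adjusted p = 0.433). DDIT3 overlaps MARS on the opposite strand, whose mean count was 1165% of that of DDIT3, and since the counting is not stated to use strand, reads of the 2 genes may not be fully separated. TRIB3, the pseudokinase that inhibits ATF4, had 985 and 970.1 against 977 and 915, and PPP1R15A, the phosphatase subunit (GADD34) that reverses eIF2 phosphorylation, had 1066 and 1179 against 1196 and 1146. In both genes the groups overlapped. CHAC1, a glutathione-degrading enzyme and a sensitive ATF4 target, was low, with 74.7 and 85.2 normalized counts against 85.1 and 104, and was not called (adjusted p = 0.379).

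In the amino acid arm, the 5 genes that rose were 3 for amino acid transporters and 2 for mitochondrial folate enzymes, and those of serine and asparagine synthesis were not called. ALDH1L2, on chromosome 12 from 105413568 to 105478355 on the minus strand, encodes a mitochondrial enzyme that oxidises formyl-tetrahydrofolate. It had 69.2 and 59.3 normalized counts in EV, against 342 and 377 under TET1-CD, or 64.3 ± 6.97 against 359 ± 25.1 (SD, n = 2 each). The groups were far apart, with a log2 fold change of 2.48 (SE 0.14), 5.56-fold, and an adjusted p of 2.32e-06 by edgeR. Its level was nevertheless low, at 0.51 and 0.42 FPKM in EV, against 2.43 and 2.79 under TET1-CD, which is the 19.9th percentile of genes tested. C12orf45 overlaps it on the opposite strand and had 134, 135, 145 and 157 counts in EV replicates 1 and 2 and TET1-CD replicates 1 and 2.

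SLC7A5, on chromosome 16 from 87863629 to 87903094 on the minus strand, encodes LAT1, the transporter of large neutral amino acids. It had 8744 and 8902 normalized counts in EV, against 13026 and 13342 under TET1-CD. Replicates lay close together and the groups well apart, with a log2 fold change of 0.58 (SE 0.05, adjusted p = 6.11e-05). Its second transcript, ENST00000565644, held 2.89% and 8.34% of the gene's counts in EV, against 0.0055% and 0.229% under TET1-CD.

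SLC3A2, whose product 4F2hc is the heavy chain that carries LAT1 and xCT to the membrane, had 3266 and 3656 normalized counts in EV, against 4176 and 4417 under TET1-CD (log2 fold change 0.31, SE 0.07, adjusted p = 0.009). SLC7A11, which encodes the cystine importer xCT, had 1893 and 1525 against 2133 and 2086 (0.30, SE 0.09, adjusted p = 0.0382). All 3 genes of these transporter pairs were therefore higher in both TET1-CD libraries than in either EV library. MTHFD2, a mitochondrial folate enzyme, had 3017 and 2844 normalized counts in EV, against 3620.5 and 3569.8 under TET1-CD (0.29, SE 0.06, adjusted p = 0.00524). Leaving out either TET1-CD library took the call from SLC3A2 (adjusted p = 0.0681 and 0.142 without replicates 1 and 2) and from MTHFD2 (0.11 and 0.0802), with the direction kept. SLC7A11 lost its call likewise (0.226 and 0.158), and without EV replicates 1 and 2 in turn its log2 fold change was 0.46 and 0.15.

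The enzymes of serine synthesis, PHGDH, PSAT1 and PSPH, had log2 fold changes of 0.00095, 0.05 and -0.06, with overlapping groups. ASNS, asparagine synthetase and a classical ATF4 target, had 704 and 713 normalized counts in EV, against 777 and 655 under TET1-CD, so that the TET1-CD libraries lay on both sides of EV. SHMT2, the mitochondrial serine hydroxymethyltransferase, was a little higher in both TET1-CD libraries (3431 and 3426 against 3220.4 and 3161) and was not called (adjusted p = 0.196). CTH, the last enzyme of cysteine synthesis by transsulfuration, had 79.4 and 80.9 in EV, against 90.5 and 49.5 under TET1-CD, and its TET1-CD libraries disagreed by more than the groups did. Summed over the arm, FPKM values were 502 and 498 in EV, against 610.3 and 606 under TET1-CD.

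Promoters of the ATF4-responsive genes often carry an amino acid response element, read here as TGATG, any base and AA on either strand. RefSeq windows on GRCh38.p14, from 250 bases before to 50 after each start, were found for 36 of the 40 genes, and not for ALDH1L2, PSPH, SHMT2 and SLC7A11. The element stood before the start in ATF3, CHAC1, ASNS and HERPUD1 and in 3.89% of 27305 genes with a window, and after the start in SLC3A2. It was found in none of the 12 ER chaperone windows, and a match describes letters only, not a site. The stretches below show the matches before the start in the regulators and in the amino acid arm, with the element in capitals; that of SLC3A2, which was called higher, is not printed. They are given 5′ to 3′ on the strand of the gene, at chr1:212565196-212565243 (plus), chr15:40953242-40953289 (plus) and chr7:97872449-97872496 (minus).
ATF3: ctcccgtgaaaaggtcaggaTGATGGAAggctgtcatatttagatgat
CHAC1: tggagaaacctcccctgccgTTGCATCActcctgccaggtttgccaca
ASNS: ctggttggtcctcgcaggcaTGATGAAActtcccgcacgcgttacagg
Of the 4 genes of these arms with a match, ATF3 fell, SLC3A2 rose, and CHAC1 and ASNS were not called. The windows of SLC7A5 and CEBPB, which had the smallest p of their arms among genes with a window, held none of the elements searched.

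Both secreted or surface targets of ATF4 fell. VLDLR, a lipoprotein receptor, had 545 and 563 normalized counts in EV, against 379.9 and 340.0 under TET1-CD (log2 fold change -0.62, SE 0.09, adjusted p = 0.00146). STC2, the secreted glycoprotein stanniocalcin 2, had 7800.0 and 8138 in EV, against 5999 and 5697 under TET1-CD (-0.45, SE 0.05, adjusted p = 4.92e-04). In both, the groups did not overlap. VLDLR, STC2, ALDH1L2 and SLC7A5 were the 4 genes called in every one of the 12 alternative fits.

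**Figure D3:**
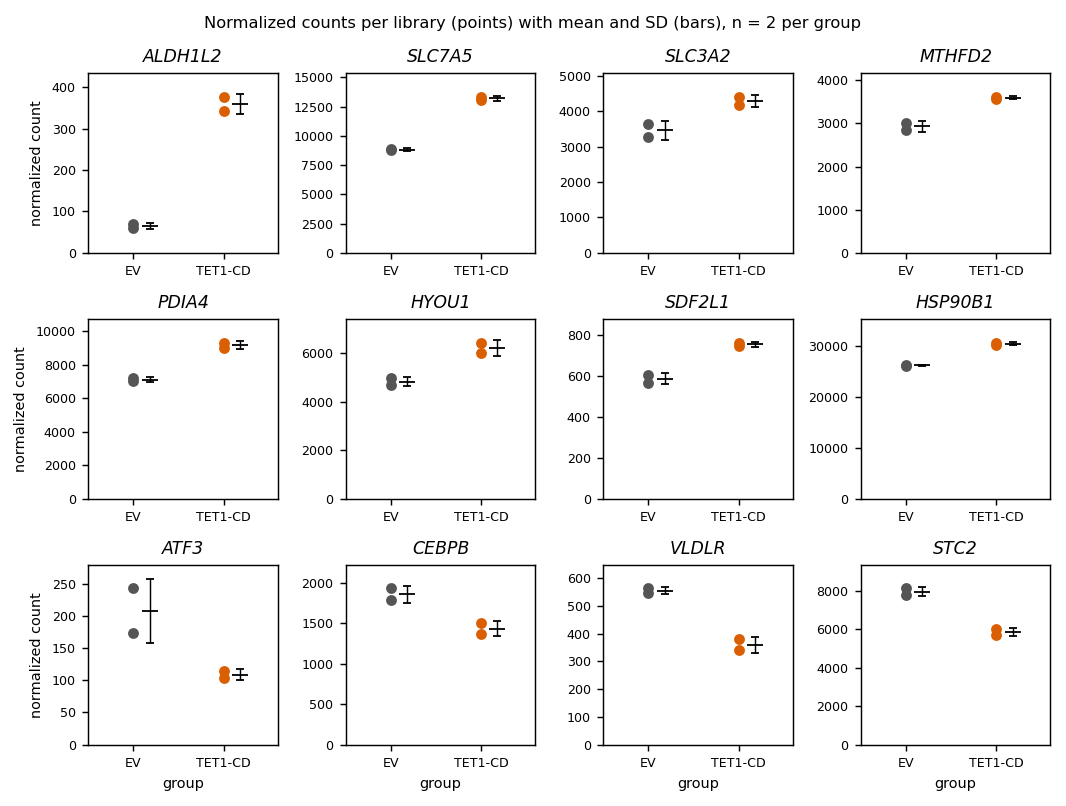
Normalized counts of 12 called genes in each library (points, 2 EV and 2 TET1-CD) with the mean and SD beside them; each vertical axis starts at 0. ALDH1L2 rises from 59.3 to 69.2 to between 342 and 377, SLC7A5 and the chaperones rise by smaller shares, and ATF3, CEBPB, VLDLR and STC2 are lower in both TET1-CD libraries.

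None of the 4 ER sensor genes passed the test. ATF6, the sensor that is cleaved to a transcription factor, had 2088 and 1976 normalized counts in EV, against 1810.2 and 1804 under TET1-CD (log2 fold change -0.17, adjusted p = 0.063). ERN1, the IRE1 kinase and nuclease, had 496 and 521 against 500.2 and 489, and EIF2AK3, the kinase PERK, had 466 and 474 against 517 and 481. The log2 fold changes of these genes were -0.04 and 0.09. XBP1, the factor made from the spliced message, had 2256 and 2525 against 2259 and 2307 (-0.07, adjusted p = 0.529).

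XBP1 can show IRE1 activity, because IRE1 removes 26 bases from its message. In the GENCODE release 44 transcripts on GRCh37, these bases are present in ENST00000216037 and absent from ENST00000344347. Release 44 places them at chr22:29192116-29192141 on the minus strand, inside the coding sequence, and their removal shifts the reading frame from 261 to 376 codons. The stretch is printed from chr22:29192091-29192166 with the bases so placed in capitals. The bases just after the capitals repeat those at their start, so shifted placements give the same spliced message, and the exact cut sites cannot be read from it.
XBP1: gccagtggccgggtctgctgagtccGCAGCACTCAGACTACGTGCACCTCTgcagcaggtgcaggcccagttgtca
The share of XBP1 counts that was assigned to ENST00000344347 was 3.28% and 4.29% in EV, against 5.32% and 4.33% under TET1-CD. The count shares were narrowly apart and the FPKM shares (5.3% and 6.8% against 8.46% and 6.74%) overlapped, and no test was run on them. The deposited FPKM implies a length of 1132 bases for ENST00000344347, against 1791 in release 44, so whether the version counted lacks the same bases cannot be read from the files.

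In the ER chaperone arm, 7 of 12 genes rose, by 0.22 to 0.37 on the log2 scale. HSPA5, which encodes BiP, the main ER chaperone and the usual marker of ER stress, lies on chromosome 9 from 127997132 to 128003609 on the minus strand. It had 21579 and 21741 normalized counts in EV, against 25196 and 23333 under TET1-CD. The groups did not overlap, yet the log2 fold change of 0.16 (SE 0.06) had an adjusted p of 0.0734 by edgeR, and of 0.0419 by DESeq2. HSP90B1, the ER paralogue of HSP90 (GRP94), had 26255 and 26057 against 30656 and 30187 (0.22, SE 0.05, adjusted p = 0.0174), and was the most abundant of the 40 genes, at 510.5 to 594 FPKM.

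PDIA4, a protein disulfide isomerase, had 7221 and 7028 normalized counts in EV, against 9335 and 9023 under TET1-CD, with a log2 fold change of 0.37 (SE 0.05, adjusted p = 0.00123), the largest of the arm. HYOU1, the nucleotide exchange factor of BiP (GRP170), had 4972 and 4694 against 6447 and 5997 (0.36, SE 0.06, adjusted p = 0.00238). SDF2L1, a partner of BiP and its ER DnaJ proteins, had 603 and 565 against 761 and 745 (0.36, SE 0.08, adjusted p = 0.00896 by edgeR and 0.0558 by DESeq2). In each of these genes the TET1-CD libraries stood above EV by more than replicates differed. Without TET1-CD replicate 1 the adjusted p was 0.0583 for PDIA4 and 0.0845 for HYOU1.

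PDIA6, another disulfide isomerase, had 8089.8 and 8852 normalized counts in EV, against 10181 and 9764 under TET1-CD (log2 fold change 0.24, adjusted p = 0.0211). Within PDIA6 the share of transcript ENST00000540494 was 2.68% and 2.39% in EV, against 6.3% and 8.02% under TET1-CD. CRELD2, an ER stress-inducible disulfide isomerase-like protein, had 869 and 983 against 1143 and 1095 (0.27, adjusted p = 0.0266), and MANF, a secreted ER stress factor, had 2039 and 2082 against 2532 and 2275 (0.22, adjusted p = 0.0359). CRELD2 overlaps ALG12 on the opposite strand, whose mean count was 42.1% of its own. DESeq2 called neither CRELD2 nor MANF (adjusted p = 0.125 and 0.0929).

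The lectin chaperones and the DnaJ proteins were not called. CALR (calreticulin) had 15410.0 and 16421 normalized counts in EV, against 18091 and 17463 under TET1-CD (log2 fold change 0.16, adjusted p = 0.0743). CANX (calnexin) had 20272 and 20214 against 21405 and 20632 (0.05, adjusted p = 0.523). DNAJC3, a co-chaperone of BiP that also inhibits PERK, had 2654 and 2563 against 3000.0 and 2769 (0.14, adjusted p = 0.119). All 3 were higher in both TET1-CD libraries without passing the test. DNAJB9, the ER DnaJ protein ERdj4 and a classical XBP1 target, went the other way, with 447 and 499 in EV, against 446 and 339 under TET1-CD (-0.27, adjusted p = 0.171). It overlaps PNPLA8 and THAP5 on the opposite strand, whose mean counts were 281% and 147% of its own. Summed FPKM values of the arm were 2099.5 and 2125 in EV, against 2489.6 and 2388 under TET1-CD.

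**Figure D4:**
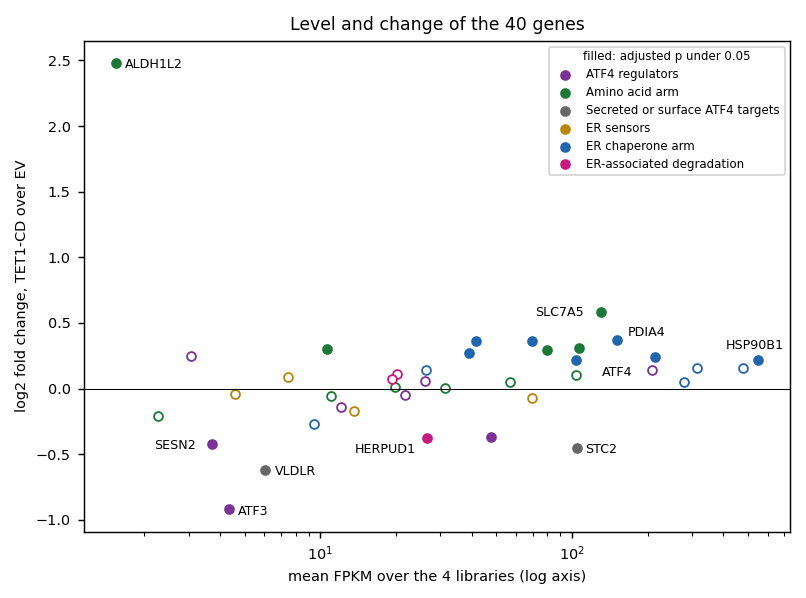
Mean FPKM over the 4 libraries (horizontal, log axis) against the log2 fold change of TET1-CD over EV (vertical) for the 40 genes, coloured by role and filled where the adjusted p was under 0.05. The largest changes, of ALDH1L2, ATF3 and VLDLR, are in genes of low level, and the ER chaperones are abundant genes with small changes. SLC7A5, next in size at 0.58, is an abundant gene.

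The promoter windows of all genes were also searched for elements of the unfolded protein response on both strands. The ER stress element was read as CCAAT, any 9 bases and CCACG, the ER stress element II as ATTGG, any base and CCACG, the UPR element as TGACGTGG and the cyclic AMP response element as TGACGTCA. The ER stress element was found in 6 of the 12 chaperone genes (HSPA5, HSP90B1, PDIA6, CALR, CANX and CRELD2), in XBP1 and in no other of the 36 genes with a window, beside 25 of 27305 genes (0.0916%). HYOU1, SDF2L1 and HERPUD1 held the ER stress element II, as did 19 of all genes (0.0696%). The UPR element was in HYOU1, where it overlaps an ER stress element II, and in 0.927% of genes, and the cyclic AMP response element was in PPP1R15A and 2.25% of genes. PDIA4, the chaperone with the smallest p, held none of them. The chaperones with and without an element both included called genes. The stretches below are from GRCh38.p14, on the strand of the gene, with the element in capitals, and were chosen after the search as examples. The search fixes the letters at both ends of an element, so those ends are alike by design. The matches in CANX and XBP1 and the further matches in HSP90B1 and HYOU1 are not printed. Their positions are chr9:125241371-125241429 (minus, 66 to 48 bases before the HSPA5 start), chr12:103930196-103930254 (plus), chr2:10812833-10812891 (minus), chr22:49918534-49918592 (plus, element on the other strand) and chr19:12938364-12938422 (plus, element on the other strand).
HSPA5: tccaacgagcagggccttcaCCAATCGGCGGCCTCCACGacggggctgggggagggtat
HSP90B1: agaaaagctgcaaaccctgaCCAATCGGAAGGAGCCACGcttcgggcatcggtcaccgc
PDIA6: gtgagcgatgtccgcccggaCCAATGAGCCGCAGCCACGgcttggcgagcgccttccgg
CRELD2: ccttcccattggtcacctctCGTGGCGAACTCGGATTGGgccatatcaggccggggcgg
CALR: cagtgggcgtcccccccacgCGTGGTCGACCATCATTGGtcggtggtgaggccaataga
The ER stress element II matches follow, at chr11:119057254-119057304 (minus), chr22:21642094-21642144 (plus) and chr16:56932005-56932055 (plus), with HYOU1 and SDF2L1 holding it on the other strand.
HYOU1: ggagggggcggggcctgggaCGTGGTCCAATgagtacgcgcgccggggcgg
SDF2L1: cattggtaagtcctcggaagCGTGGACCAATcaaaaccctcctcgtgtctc
HERPUD1: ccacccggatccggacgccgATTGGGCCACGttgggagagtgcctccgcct
HYOU1 and SDF2L1 rose by 0.36 on the log2 scale, and HERPUD1, with the same element, fell.

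Of the set's genes of ER-associated degradation, HERPUD1 fell, and SEL1L and EDEM1 were not called. HERPUD1, which helps to assemble the degradation complex at the ER membrane, had 999 and 1084 normalized counts in EV, against 799 and 796 under TET1-CD. Both TET1-CD libraries were lower, with a log2 fold change of -0.38 (SE 0.07, adjusted p = 0.00413). Without TET1-CD replicates 1 and 2 in turn, its adjusted p was 0.0715 and 0.0545. SEL1L, the adaptor of the HRD1 ubiquitin ligase, and EDEM1, which marks misfolded glycoproteins for removal, had log2 fold changes of 0.11 and 0.07, with overlapping groups.

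Further genes of the same pathways were counted from lists written by function. For fits with a library left out, here and in the next paragraph, the share of all genes called is not given, so those counts have no background. Of 20 cytosolic tRNA synthetases, many of them ATF4 targets, 12 were higher and none lower, beside 10.0% higher and 9.61% lower among all genes tested, with a median log2 fold change of 0.21. FARSB rose by 0.42 (adjusted p = 0.00201), MARS by 0.32 (0.00341), VARS by 0.29 (0.00751) and HARS by 0.27 (0.0112), while AARS was at -0.09 (0.28). Without TET1-CD replicates 1 and 2 in turn, 2 and 1 of them were called higher. Of 28 other ATF4 targets 26 were tested, 4 were higher and 7 lower, and the median was -0.07. DDIT4, the mTORC1 inhibitor REDD1, had 5064 and 5409 normalized counts in EV, against 2055 and 2041 under TET1-CD (-1.35, SE 0.06, adjusted p = 3.06e-07). In the same list KLHL24 fell by 0.76 on the log2 scale (adjusted p = 0.00377), ALDH18A1, which starts proline synthesis, fell by 0.26 (0.00943), and ATF5, a bZIP factor translated like ATF4, rose by 0.46 (0.00419). Without TET1-CD replicate 1, none of the list was higher and 2 were lower, without TET1-CD replicate 2, 1 and 2, and without EV replicate 1, 2 were higher.

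Of 14 genes for eIF2, its exchange factor eIF2B and its regulators, 3 were higher (21.4%) and 1 lower (7.14%), with a median of 0.12. Among all genes tested, 10.0% were higher and 9.61% lower. EIF2B2, EIF2S1 and EIF2B3 rose by 0.27, 0.19 and 0.29 (adjusted p = 0.0262, 0.0425 and 0.0473), and the kinase EIF2AK2 (PKR) fell by 0.20 on the log2 scale (adjusted p = 0.0311). Leaving out either TET1-CD library removed all 4 calls, DESeq2 called none of the list higher, and without EV replicate 1 it held 6 higher. Among 32 other genes of ER folding, translocation and XBP1 targets, 4 were higher (12.5%) and 1 lower (3.12%). That is 15.6% in all, beside 19.7% of all genes tested. DNAJB11 and SIL1, co-chaperones of BiP, rose by 0.31 and 0.32 (adjusted p = 0.00985 and 0.0207), TXNDC5 rose by 0.20 (0.0361) and ERO1L, the oxidase that recharges disulfide isomerases, fell by 0.37 (0.00114). The higher calls in this list numbered 0 and 1 without TET1-CD replicates 1 and 2 and 7 and 8 without EV replicates 1 and 2, and 2 were lower without EV replicate 2. Of 13 other genes of ER-associated degradation 3 were higher (23.1%, beside 10.0% of all genes tested) and none lower. VIMP rose by 0.45 (adjusted p = 5.23e-04), UFD1L by 0.22 (0.0281) and VCP by 0.16 (0.049). Without TET1-CD replicate 1, and likewise without replicate 2, 1 gene of the list was higher, and without EV replicate 1, 1 was lower.

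**Figure D5:**
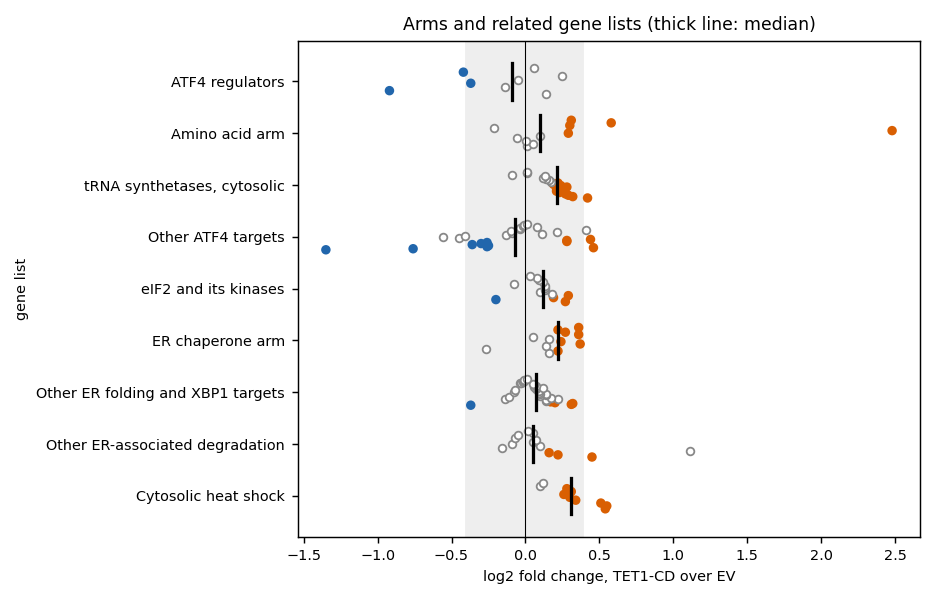
Log2 fold change of TET1-CD over EV for the genes of each list (points, orange or blue where called higher or lower, open where not called), with the list's median as a thick line and the 10th to 90th percentile of all genes tested as a grey band. The tRNA synthetases, the ER chaperone arm and the cytosolic heat shock genes lie mostly to the right of 0, with medians of 0.21, 0.22 and 0.31, and the other ATF4 targets spread to both sides, with DDIT4 at -1.35.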

How the data were processed

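For each of 4 T24 libraries, the authors deposited expected counts (estimated fragments, which need not be whole) and FPKM values (fragments scaled to transcript length and depth) for 195700 transcripts, with GRCh37 coordinates. The submitters' processing notes name cutadapt 1.9.1, HISAT2 2.0.1, HTSeq 0.6.1, DESeq2 and hg19, without roles; the tool that gave fractional counts and the annotation release are not given in the sources used here, nor is strand use. Libraries were made from poly(A)-selected or rRNA-depleted RNA (the labels name both) with random priming.

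Counts were summed per gene and rounded. TET1-CD and EV were compared with edgeR 4.0.16 (glmQLFit, glmQLFTest, TMM, filterByExpr, no block) in R 4.3.3, two-sided, with Benjamini-Hochberg adjustment and a threshold of 0.05. TMM factors were 0.9934 to 1.005. Standard errors were obtained as log2 fold change over the root of F. The study's own test was DESeq2 with a fold change of at least 2. Groups came from the labels. With 2 libraries per group, the spread of a gene is borrowed from all genes, and replicates differed by more than counting noise. Chi-square per gene between replicates was 6.41 for the EV pair and 2.75 for the TET1-CD pair. Whether this gap bears on the calls that changed with a library left out was not tested.

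The alternatives were a replicate block, DESeq2 1.42.0, unfiltered genes, a minimum of 10 counts per library, RLE factors, plain library sizes, limma-voom (limma 3.58.1), limma on log2(FPKM + 0.1), each library left out and a 2-fold threshold. The test was also run on simulated counts in which 200 genes changed by at least 2-fold. Smaller changes, such as those of every called gene of the 40 but ALDH1L2, were not simulated, so their calls were not checked in this way. All 40 genes are named, and from each further list at most 4 called genes with the smallest p, with the remaining names added after values were seen. The genes and lists were chosen with earlier results of these data known. Promoters came from RefSeq (GRCh38.p14), and the rule for printing them named SLC7A5, CEBPB and PDIA4, so the stretches shown were chosen after the search. Marker values are given for those that a result or the check of the cell type needs.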

Additional observations from a re-analysis of the deposited data

How the results depend on the processing

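Each of the 40 genes was refitted under 12 alternatives. Of these 480 values, 420 kept their direction and side of the threshold, 32 lost the call, 13 gained it and 15 changed sign, none of them for a called gene. The 24 other named genes kept both in 249 of 288 values and lost the call in 39. The cause of these changes was not tested, beyond the smaller number of libraries when 1 is left out, where the lone library is assumed to vary like the other group. Sign changes with each library left out in turn were of PPP1R15A (range -0.02 to 0.13), ASNS (-0.11 to 0.13, and -0.0049 without EV replicate 1), PSAT1 (-0.03 to 0.12), PHGDH (-0.04 to 0.05, and -0.02 without EV replicate 1), PSPH (-0.14 to 0.01), CTH (-0.69 to 0.18), XBP1 (-0.15 to 0.02) and EDEM1 (-0.01 to 0.14). The others were ASNS (-0.05), PSPH (1.1e-05) and ERN1 (0.04) on FPKM, and PHGDH without a filter (-0.0021) and by DESeq2 (-0.00087).

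With each library left out in turn, the genes called higher numbered 2 to 15 and lower 2 to 7, the regulators called lower 0 to 3, the amino acid arm called higher 2 to 5 and the ER chaperones called higher 0 to 9. The median log2 fold change was 0.09 to 0.18 for the amino acid arm and 0.17 to 0.25 for the chaperones. Called genes then numbered 1 to 13 higher for tRNA synthetases, 0 to 4 higher and 2 to 8 lower for other ATF4 targets, 0 to 6 higher and 0 to 1 lower for eIF2 and its kinases, 0 to 8 higher and 1 to 2 lower for other ER folding genes, 1 to 3 higher and 0 to 1 lower for other ER-associated degradation and 3 to 9 higher for cytosolic heat shock. The share of all genes called with a library left out is not given here, so the counts above cannot be set beside it. A 2-fold threshold left 1 of the 40 genes higher and 0 lower. DESeq2 called 2 higher and 4 lower of the other ATF4 targets, 0 higher of eIF2 and its kinases and 2 higher of other ER folding genes. On FPKM, 2 other ATF4 targets and 2 other ER folding genes were higher and 0 of eIF2 and its kinases lower. The XBP1 share of ENST00000344347 was 6.05% in EV and 7.6% in TET1-CD cells by FPKM, and 3.79% and 4.83% by counts.

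Libraries with the same number share only that number. The correlation of their deviations was 0.00713 over 14573 genes and 0.0504 over the 7286 of higher level. A block on the replicate number gave 13 genes higher and 6 lower, HSPA5 being added (adjusted p = 0.0422 by edgeR). RLE factors and plain library sizes gave the counts of the report for both arms and the regulators. Having 2 libraries a group limits the test of small changes, and depth that of low genes such as CHAC1 and CTH.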

Other observations

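Cytosolic heat shock genes, which respond to unfolded proteins outside the ER through HSF1, moved in the same direction as the ER chaperones. Of 10 genes listed, 8 were higher and none lower by edgeR's quasi-likelihood test with Benjamini-Hochberg adjustment, beside 10.0% higher among all genes tested, with a median log2 fold change of 0.31, and all 10 lay above EV in both TET1-CD libraries, as did 30.8% of all genes tested. HSPH1 (HSP110) had 8381 and 8257 normalized counts in EV, against 12376 and 11854 under TET1-CD (0.54, standard error, SE, 0.05, adjusted p = 1.07e-04). DNAJB1 (HSP40) had 1965 and 2156 against 3119 and 2914 (0.55, SE 0.06, adjusted p = 3.81e-04). HSPA8, the constitutive HSC70, had 86131 and 97017 against 114968 and 117377 (0.34, SE 0.07, adjusted p = 0.00736). HSPA1A had a log2 fold change of 0.51 (adjusted p = 0.00393), but it shares nearly all of its sequence with HSPA1B, and the split of reads between them is uncertain. HSP90AB1 and HSPB1 were not called (0.10 and 0.12). Fewer of the 10 genes were called higher with either TET1-CD library left out, and the share of all genes called in those fits is not given here. The log2 fold change of HSPA8 was then 0.36 and 0.33 without TET1-CD replicates 1 and 2.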
